A study of Mus musculus with 6 samples.

Results

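Myc and 44 genes of ribosome biogenesis were described in MC38, a tumour cell line derived from mouse colon adenocarcinoma. The members were fixed as a list of gene symbols, and all 45 had a row among the 24181 genes of the deposited count table. MYC is a transcription factor that raises the synthesis of ribosomes. Ribosomes are built in the nucleolus, where RNA polymerase I transcribes the ribosomal RNA precursor, small nucleolar ribonucleoproteins (snoRNPs) guide its chemical modification, and large assemblies of processing factors cut it and fold it into the small and large subunits. Fast-growing tumour cells need many ribosomes, and this set of genes is widely used as a readout of MYC activity.

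The series holds 6 samples in 2 groups of 3. The groups are parental MC38 cells, with the genotype label WT, and MC38 cells that express STING-N153S, a form of the DNA-sensing adaptor STING with a changed amino acid. Both were grown in standard DMEM without a stated treatment or time, and the labels do not say whether the STING-N153S cells are 1 clone, nor which promoter drives the protein. STING-N153S libraries were not analysed here, since no column name tied 1 column to each of those samples. All values below are from parental cells, and no difference between the groups is given.

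RNA was counted by 3'-end sequencing. Levels are given in CPM, a gene's counts scaled to a common library total. The protocol yields fragments from the 3' end of each transcript, so CPM were not divided by length, and genes were compared on that scale. The 3 libraries held 3210024 to 4020023 counts. The deposited annotation lists the libraries as biological replicates 1 to 3, without saying whether these were separate cultures, so p-values measure the spread between these samples. Replicate 3 stood apart: of 311 genes that varied between the libraries, it lay farthest from the others in 192. The tissue label was checked against markers. Of 8 epithelial markers 3 had a row under their symbol and were analysed (Krt8, Krt19 and Vil1), and each had 1 count over the 3 libraries. The analysed markers thus did not show epithelial expression. The mesenchymal gene Col3a1 had 115 ± 8.80 CPM (SD, n = 3). Summed CPM ranged from 22.4 to 23.5 for 5 myeloid markers, of which Cd14 held nearly all and Csf1r and Lyz2 had 0 counts, and from 0 to 0.312 for 3 lymphocyte markers. The sums ranged from 0.312 to 1.19 for 5 endothelial markers, where Tie1 had 0 counts, and from 173 to 197 for 7 fibroblast markers. Most of the fibroblast sum came from Col3a1 and Dcn (52.1 CPM). Pdgfra had a mean of 12.8 CPM, Col1a1 3.58, Col1a2 0.991, Pdgfrb 0.667 and Lum 0.0829 CPM.

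The canonical E-box, CACGTG, is the preferred DNA motif of MYC with its partner MAX. It was searched in the promoter windows of RefSeq on GRCm38.p6, which run from 250 bases before to 50 after a transcription start. Windows were matched for 39 of the 45 members, and Myc, Npm1, Fbl, Rrp12, Bop1 and Rrs1 were not among them. The motif was in the windows of 8 members, whose 30-base stretches are shown, 5′ to 3′ in the direction of transcription and with the motif in capitals, because they show where the letters stand in each promoter.
Imp4: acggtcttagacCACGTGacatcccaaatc
Nop2: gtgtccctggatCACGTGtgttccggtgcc
Pes1: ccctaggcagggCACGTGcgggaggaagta
Wdr43: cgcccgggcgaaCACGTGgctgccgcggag
Tsr1: tcacttggtgcaCACGTGgactgcagaatg
Grwd1: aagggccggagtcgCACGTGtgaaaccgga
Utp20: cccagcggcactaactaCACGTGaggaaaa
Mybbp1a: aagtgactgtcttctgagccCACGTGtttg

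On GRCm38.p6 these stretches lie at chr1:34439696-34439725 (Imp4, plus strand), chr6:125131811-125131840 (Nop2, plus), chr11:3963965-3963994 (Pes1, plus), chr17:71616220-71616249 (Wdr43, plus), chr11:74898092-74898121 (Tsr1, plus), chr7:45830740-45830769 (Grwd1, minus), chr10:88826765-88826794 (Utp20, minus) and chr11:72441347-72441376 (Mybbp1a, plus). Counted from the transcription start as base 1, the motif began at base -121 in Imp4 and -60 in Nop2. It lay within the transcript in the other 6, from base 3 in Pes1 to base 41 in Mybbp1a. The share of members with the motif was 20.5% (8 of 39), beside 8.09% of all 27025 genes in the promoter table and 12.9% of the 6005 with a mean of 10 CPM or more. CACGTG reads the same on both strands. The variant E-box CACGCG, searched on both strands, was in the windows of 12 members (30.8%), beside 10.5% of all genes and 22.4% of those at 10 CPM or more. Mybbp1a and Pes1 had both motifs, at positions that do not overlap. These counts describe letters in a window and were not tested, and they do not show binding. The median member had 132 CPM among the 8 with CACGTG, 220.1 CPM among the 12 with CACGCG and 154 CPM among the 21 with neither.

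Every member was well counted in parental cells. All 45 averaged 10 CPM or more and 34 averaged 100 CPM or more, where 31.2% and 8.54% of all genes in the table reached those levels. The median member had 165 CPM. Together the members took 15345, 15444 and 15788 CPM in replicates 1 to 3, or 1.55% of all counts. The sum was highest in replicate 3 and the libraries differed little, with a mean of 15525 ± 232 CPM (SD, n = 3).

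**Figure D1:**
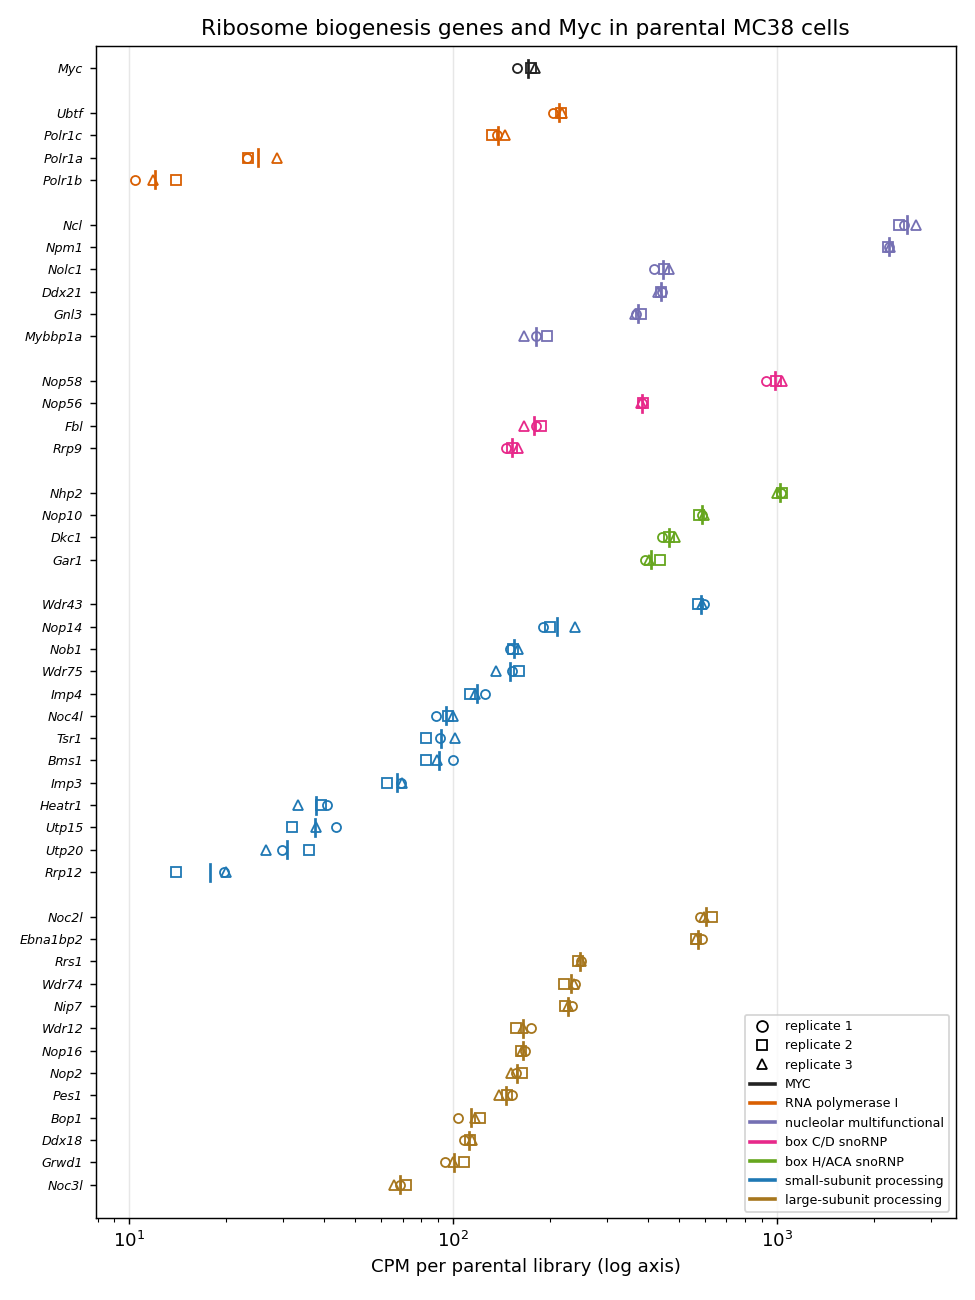
CPM of each of the 45 members in each parental library (log axis), grouped by role. Open symbols are the 3 replicates and vertical bars their mean; members run from 12.1 CPM (Polr1b) to 2523 CPM (Ncl), and the spread between libraries is small beside the differences between genes.

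Myc itself, at chromosome 15, 61985391 to 61990374 on GRCm38 (plus strand, 3 exons), had 529, 701 and 574 counts, which are 157, 174 and 179 CPM in replicates 1 to 3. Replicate 1 was the lowest. Its mean of 170.2 ± 11.3 CPM (SD, n = 3) was close to the median member, and the spread did not pass the chi-square test of counts described below (Benjamini-Hochberg adjusted p = 0.525). Of its paralogs, Mycn had 0 counts, and a floor of 3 counts in the shallowest library is 0.935 CPM, for counting error only, and Mycl had 4, 3 and 3 counts. Max, the partner through which MYC binds DNA, had 96.1 ± 4.09 CPM, and Mlx, which pairs with a related family, 94.9 ± 1.41 CPM (SD, n = 3). The MAX partners that oppose MYC stood lower: Mxd3 had 25.3 ± 3.23 CPM, Mxi1 17.1 ± 1.01 CPM, Mga 10.2 ± 0.44 CPM, Mxd4 6.75 ± 0.63 CPM, Mnt 2.75 ± 0.45 CPM and Mxd1 0.750 ± 0.440 CPM (SD, n = 3). Of 18 genes of the MYC network analysed, 15 reached 1 CPM, led by Ruvbl2, an ATPase of chromatin and snoRNP assembly, with 268 ± 11.8 CPM, and the mitotic kinase Aurka with 252 ± 9.47 CPM (SD, n = 3).

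The RNA polymerase I genes ranged from the lowest member to well above the median. Ubtf, which binds the ribosomal DNA promoter, had 204, 216 and 217 CPM. Polr1c, a subunit shared with RNA polymerase III, had 137, 132 and 145 CPM. The genes of the large catalytic subunits were far lower: Polr1a had 23.2, 23.4 and 28.7 CPM and Polr1b 10.4, 13.9 and 11.8 CPM. The groups of 3 values did not overlap between any of these 4 genes. Polr1c was counted 5.54 ± 0.43 times as often as Polr1a (SD, n = 3), with an exact (Clopper-Pearson) 95% interval of 4.84 to 6.32 for the pooled counts, and Polr1b 0.486 ± 0.097 times as often (0.393 to 0.605). These intervals cover counting error only. Of 18 further genes of this polymerase and its factors analysed, all were at 1 CPM or more. The highest was Polr1d, the partner of Polr1c in the same 2 polymerases, with 739 ± 40.4 CPM (SD, n = 3), and then Polr2f, common to the nuclear polymerases, with 394, 373 and 422 CPM. The initiation factor Rrn3 had 56.2 ± 4.64 CPM, while Taf1a, Taf1b and Taf1c, subunits of the promoter selectivity factor, had 7.18 ± 0.77, 10.7 ± 0.57 and 2.46 ± 0.36 CPM (SD, n = 3).

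The multifunctional nucleolar proteins had the highest summed level of the groups, 6183 CPM, most of it from Ncl and Npm1, while the highest median was that of the box H/ACA snoRNP, 526 CPM against 441 CPM. Ncl, for nucleolin, at chromosome 1, 86344719 to 86359400 (minus strand, up to 14 exons), had 2470.2, 2395 and 2702 CPM. Npm1, for nucleophosmin, at chromosome 11, 33152287 to 33163206 (minus strand, up to 11 exons), had 2224, 2215 and 2236 CPM. Npm1 was below Ncl in all 3 libraries, at a ratio of 0.884 ± 0.051 (SD, n = 3; exact interval 0.870 to 0.901). The CV of Npm1 between libraries was 0.476%, against 6.35% for Ncl. Counting noise alone gives a CV of about 1.13% for Npm1 and 1.06% for Ncl. The value of Npm1 lies below its counting noise, so it does not show an unusually stable gene. The next genes stood several-fold lower. Nolc1, a chaperone of snoRNPs, had 419, 449.7 and 464 CPM, the helicase gene Ddx21 442, 441 and 431 CPM, and the GTPase gene Gnl3, for nucleostemin, 369, 382 and 365 CPM. Mybbp1a, a nucleolar repressor of transcription, was the lowest of the group with 181, 196 and 166 CPM.

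In the box C/D snoRNP, which guides methylation of the ribose in ribosomal RNA, the shared core subunits were not counted equally. Nop58, at chromosome 1, 59684971 to 59719044 (plus strand), had 930.1, 994 and 1042 CPM. Its paralog and partner in the particle, Nop56, had 385, 387 and 381 CPM, and the methyltransferase Fbl, for fibrillarin, 180.1, 188 and 166 CPM. Nop58 exceeded Nop56 2.57 ± 0.16 times (SD, n = 3; exact interval 2.48 to 2.66), and Nop56 exceeded Fbl 2.17 ± 0.12 times (2.04 to 2.27), each in 3 of 3 libraries. Rrp9, which is found in the U3 particle only, had 146, 152 and 159 CPM, at 0.861 ± 0.085 of Fbl (0.798 to 0.912). Fbl and Nop56 have near-identical sequences elsewhere, as given below, so the ratios with either gene are uncertain.

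The box H/ACA snoRNP converts uridine to pseudouridine. Its 4 core genes lay within a narrower range, and all were above 100 CPM in each library. Nhp2, which binds the guide RNA, had 1031, 1042 and 1003 CPM, and Nop10, the smallest subunit, 588, 574 and 597 CPM. The catalytic subunit Dkc1 had 444, 465 and 485 CPM and Gar1 393, 435 and 402 CPM. Relative to Dkc1, Nhp2 was counted 2.21 ± 0.13 times (SD, n = 3; exact interval 2.14 to 2.29), Nop10 1.26 ± 0.05 times (1.21 to 1.31) and Gar1 0.884 ± 0.053 times (0.851 to 0.924), and each kept its side of 1 in 3 of 3 libraries. A gene on the opposite strand reaches the ends of Dkc1 and Nhp2, as given below, so these ratios are uncertain too.

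Among the 13 genes of small-subunit processing, the range was wide and the median, 91.6 CPM, was the lowest of the groups except that of RNA polymerase I, at 81.6 CPM. Wdr43 led with 595, 570.1 and 587 CPM. It belongs to the complex that binds the nascent precursor, and its partners there were counted much less: Wdr75 had 152.7, 159.9 and 136 CPM, Heatr1 40.8, 39.3 and 33.3 CPM and Utp15 43.5, 31.8 and 37.7 CPM. Wdr43 was counted 15.6 ± 1.8 times as often as Heatr1 (SD, n = 3; exact interval 13.9 to 17.04) and Wdr75 3.97 ± 0.19 times as often (3.55 to 4.43). Utp15 and Heatr1 were not told apart, at a ratio of 1.002 ± 0.170 (0.853 to 1.13) with replicate 2 on the other side of 1.

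Nop14, at chromosome 5, 34638536 to 34660148 (minus strand, up to 18 exons), had 189.6, 199.8 and 239 CPM, and replicate 3 was above both others. Its partner Noc4l had 88.7, 96.5 and 99.999 CPM, so that Nop14 was counted 2.20 ± 0.17 times as often (SD, n = 3; exact interval 2.03 to 2.36). Imp3 had 69.4, 62.4 and 69.5 CPM and Imp4, its neighbour in the U3 particle, 126, 113 and 117 CPM, a ratio of 0.567 ± 0.024 (0.515 to 0.620). The GTPase gene Bms1 had 100.3, 82.6 and 89.1 CPM and the related Tsr1 91.1, 82.6 and 101 CPM. Their ratio of 0.994 ± 0.111 (0.906 to 1.09) lay on both sides of 1 between libraries. Nob1, the nuclease that makes the end of 18S rRNA, had 154 ± 4.43 CPM (SD, n = 3). The lowest were Utp20 with 29.8, 36.1 and 26.5 CPM and Rrp12, an export factor, with 19.6, 13.9 and 19.9 CPM.

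The 13 genes of large-subunit processing had a median of 165 CPM. Noc2l was the highest with 578, 634 and 598 CPM, while its binding partner Noc3l was the lowest with 68.8, 71.9 and 65.7 CPM, a ratio of 0.114 ± 0.005 for Noc3l to Noc2l (SD, n = 3; exact interval 0.106 to 0.123). This was the most unequal pair after Wdr43 and Heatr1 among the 18 pairs compared. A gene on the opposite strand reaches the ends of Noc2l and Heatr1, as given below, so both ratios are uncertain. The 3 genes of the PeBoW complex were close to each other. Pes1 had 152, 147 and 139 CPM, Bop1 104, 122 and 117 CPM and Wdr12 174, 156 and 165 CPM. Bop1 stood at 0.784 ± 0.089 of Pes1 (0.726 to 0.845) and Wdr12 at 1.13 ± 0.06 (1.05 to 1.21). Wdr12 shares its 3' end with other annotated sequences, as given below, so the second ratio is uncertain. Ebna1bp2 (571 ± 13.8 CPM), Rrs1, which helps to load the 5S RNP (247 ± 3.43 CPM), Wdr74 (232 ± 9.88 CPM) and Nip7 (228 ± 5.64 CPM) were above the median of the group (SD, n = 3). Nop16 (165 ± 2.78 CPM) lay at it, and the RNA methyltransferase Nop2 (157 ± 6.42 CPM), the helicase Ddx18 (112 ± 3.12 CPM) and Grwd1 (101 ± 7.07 CPM) lay below it (SD, n = 3).

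**Figure D2:**
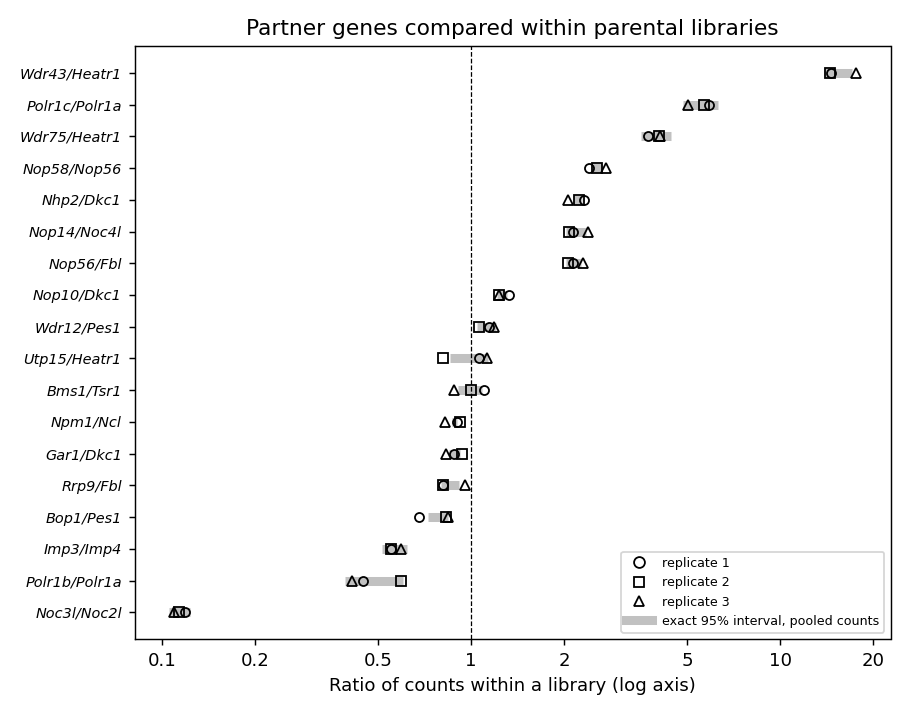
Ratio of the counts of 2 partner genes in each parental library (log axis), for 18 pairs ordered by mean ratio. Symbols are the 3 replicates and grey bars the exact 95% interval of the pooled counts; the ratios run from 0.114 (Noc3l to Noc2l) to 15.6 (Wdr43 to Heatr1), and the points of Utp15/Heatr1 and Bms1/Tsr1 lie on both sides of 1.

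The spread between the 3 parental libraries was then set against counting noise. A chi-square test of the counts of each gene used expected counts in proportion to library size. It was adjusted over all genes tested by the Benjamini-Hochberg method, and it compares libraries, not conditions. The test takes each count as a separate molecule, which the sources used here do not state. Its p-values are too small if molecules were counted more than once. It called 3 of the 45 members, Ncl, Nop58 and Nop14, where 2.80% of all 11118 genes tested were called. At an unadjusted p below 0.05 it took 11 members, where the share of all genes was 13.2%. More counts let the test detect a smaller difference, and the members were counted more than most genes, so these shares do not rank the members against other genes. The 3 differences were small, with a ratio of the highest to the lowest library of 1.13 for Ncl (adjusted p = 2.15e-14), 1.12 for Nop58 (adjusted p = 0.00617) and 1.26 for Nop14 (adjusted p = 0.00186). Each of the 3 was highest in replicate 3, as were 125 of the 311 genes called (1.12% of all genes tested). In Nop58, replicate 1 lay farthest from the others. Without replicate 3 none of the 3 was called, with adjusted p of 0.440, 0.404 and 0.887, and 0.548% of all genes were. Without replicate 1, where 1.92% of all genes were called, Nop58 was not (adjusted p = 0.418). The part of the library in these differences was not tested.

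The other 42 members were not called. Over all 45, the median CV between libraries was 5.17%, and it was 10.2% over all genes tested. A CV includes counting noise, which is larger for genes with fewer counts, and the members were counted more than most genes. The median chi-square per degree of freedom, which rises with spread beyond counting noise, was 1.52 for the members and 0.934 for all genes tested. Under counting noise alone its mean is 1 and its median is lower. At the same relative spread it also rises with the counts of a gene, so these medians do not rank the members against other genes. The members had no common order of libraries. Scaled by the library sizes of the chi-square test, 17 (37.8%) were highest in replicate 1, 12 (26.7%) in replicate 2 and 16 (35.6%) in replicate 3. Over all genes tested the shares were 32.4%, 32.7% and 35.0%. By CPM, which use library totals, replicate 3 was most often the highest among the members, so the order depends on the scaling. The share over all genes was not counted on that scale. At a similar depth, Npm1 had 0.702 per degree of freedom and Ncl 37.7.

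**Figure D3:**
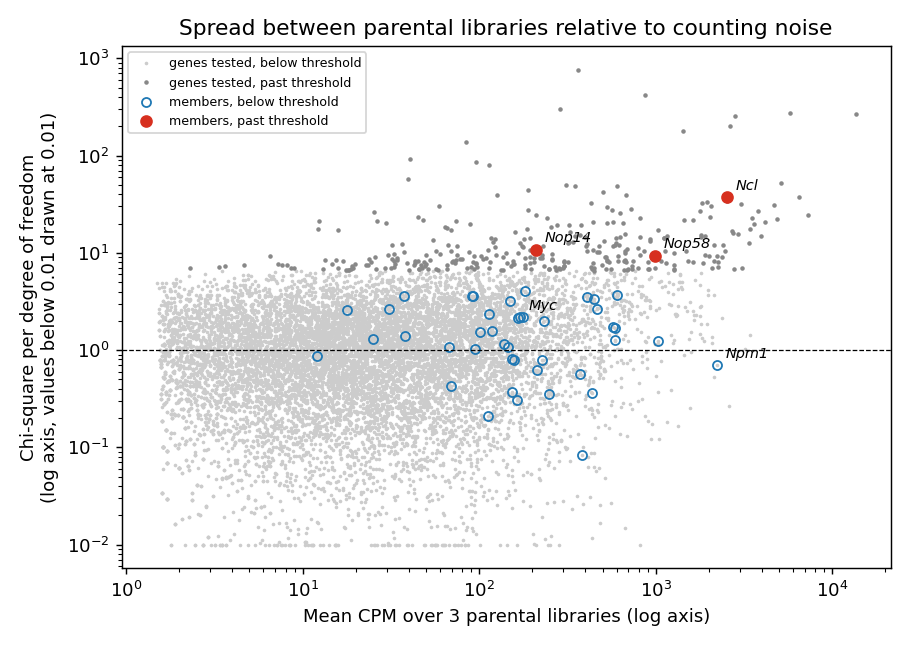
Chi-square per degree of freedom between the 3 parental libraries against mean CPM (both axes log) for the 11118 genes tested (grey) and the 45 members (circles). The 3 filled circles, Ncl, Nop58 and Nop14, passed the threshold. The dashed line marks 1, the mean but not the median under counting noise alone. Npm1 lies below it although it is nearly as abundant as Ncl.

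The wider pathway was counted from 8 further lists. Of 180 genes listed, 171 were analysed, 168 of them at 1 CPM or more on average and 67 at 100 CPM or more, and 4 of 168 tested varied between libraries (2.38%). Like the called members, all 4 were highest in replicate 3. Rrp1, a factor of large-subunit processing, had 562, 624 and 704 CPM (adjusted p = 2.44e-09), and Gtpbp4, a GTPase of the same pathway, 177, 194 and 218 CPM (adjusted p = 0.0429). Polr1d had 725, 707 and 784 CPM (adjusted p = 0.0151), and Snhg8, a noncoding snoRNA host, 441, 467 and 518 CPM (adjusted p = 0.00300).

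Further factors of large-subunit processing, 47 in number, had a median of 107 CPM and were led by Eif6, which keeps the subunits apart, with 835 ± 11.0 CPM, followed by Rrp1 with 629.99 ± 71.3 CPM (SD, n = 3). Those of small-subunit processing, 43 in number, had a median of 88.4 CPM and were led by the methyltransferase Emg1 with 335 ± 17.0 CPM and Utp11 with 329 ± 8.07 CPM (SD, n = 3). In both cases the median was near or below that of the members with the same role. All 17 RNA exosome and trimming genes exceeded 10 CPM, with the exonuclease Xrn2 at 303 ± 9.58 CPM and Exosc8 at 279 ± 13.2 CPM (SD, n = 3). The 10 snoRNP assembly genes were led by Rpap3 with 198 ± 15.2 CPM and Znhit6 with 175 ± 4.04 CPM (SD, n = 3). Of the genes that link ribosome assembly to p53, the 5S RNP proteins Rpl11 and Rpl5 had 1771 ± 31.0 and 655 ± 11.8 CPM, Trp53 139 ± 5.87 CPM and Mdm2, which the 5S RNP binds, 27.4 ± 2.89 CPM (SD, n = 3).

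Members were also described by their place in the genome, from GENCODE M21 on GRCm38. Of 45 members, 7 carry snoRNA genes on their strand within their span, a share of 15.6%, beside 1.56% of 14188 coding genes with a row and 2.29% of the 7200 at 10 CPM or more. These hosts are Ncl (3 snoRNA genes), Gnl3 (3), Nop56 (5), Nop58 (4), Dkc1 (1), Wdr43 (3) and Tsr1 (2). Those with a snoRNA symbol are Snora75 and Snord82 in Ncl, Snord19 and Snord69 in Gnl3, Snord57 and Snord110 in Nop56, Snord11 and Snord70 in Nop58, Snord53 and Snord92 in Wdr43, and Snord91a in Tsr1. Host members had a median of 465 CPM and the 38 others 156 CPM, which is a description of these genes and was not tested. The noncoding hosts, whose products are known mainly as carriers of snoRNAs, were led by Gas5 with 663 ± 19.2 CPM and Snhg8 with 475 ± 39.1 CPM (SD, n = 3), and all 12 analysed were above 10 CPM.

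A coding gene in head-to-head orientation within 1000 bases was annotated for 10 members (22.2%), beside 9.66% of coding genes with a row and 12.6% of those at 10 CPM or more. One such neighbour is itself a ribosome biogenesis gene: Noc4l faces Ddx51, a helicase of large-subunit processing, which had 26.8 ± 0.24 CPM (SD, n = 3). Counting noise alone gives Ddx51 a CV of about 10.3%, so that SD understates the uncertainty. Other head-to-head pairs are Bop1 with the heat shock factor Hsf1, Polr1a with Ptcd3 and Nip7 with Cog8.

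**Figure D4:**
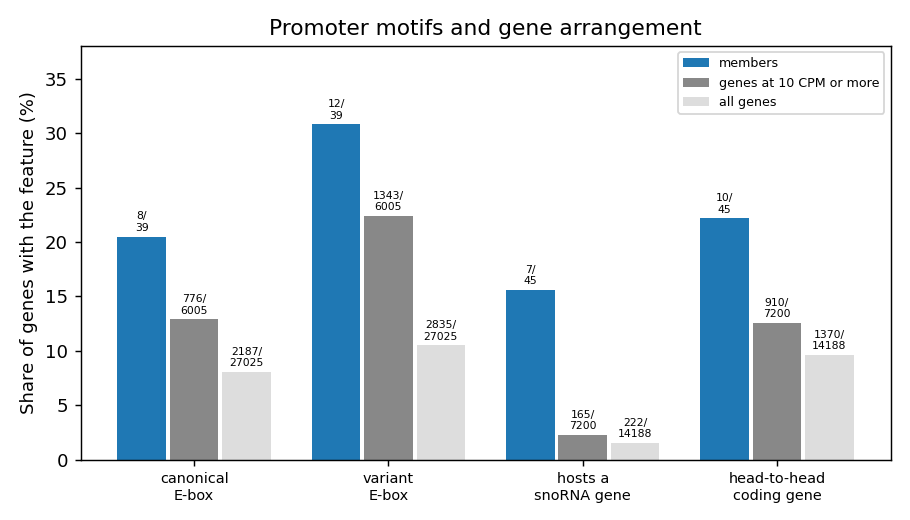
Share of genes (%) with each of 4 features, for the members, for genes with a mean of at least 10 CPM and for all genes; numbers above the bars give genes with the feature over genes assessed. The members' share is 20.5% for the canonical E-box, 30.8% for the variant E-box, 15.6% for snoRNA hosts and 22.2% for head-to-head neighbours; none of the differences was tested.

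The sources used here do not state how reads that match several genes were counted, so members with near-identical copies are uncertain. The last 500 bases of coding transcripts were compared with all other annotated transcripts at 90% identity over 300 bases or more. By that measure 8 members had a similar sequence elsewhere. Copies with a row were counted at 1.73% of the counts of Npm1 (5 similar sequences), 1.74% of Nop56 (5), 1.68% of Ddx18 (3) and 7.06% of Wdr12 (4). For Fbl (2) and Gar1 (1) the shares were 0.211% and 0.0459%, and the 1 copy each of Dkc1 and Wdr75 had 0 counts. Sequences came from GENCODE M21 and counts from M25, and rows were matched by symbol, so a renamed sequence would seem to lack a row. The shares above leave out a sequence without a row for each of Nop56, Ddx18, Wdr12 and Fbl. For Fbl it was identical over 386 bases, and for Nop56 its identity was 99.77% over 442. Of the 123 counts for Wdr12, 120 were in Pms1, a gene of which a processed transcript matched. A gene on the opposite strand reaches the last 500 bases of 8 members: Mybbp1a, Nop56, Dkc1, Nhp2, Heatr1, Tsr1, Bop1 and Noc2l. Whether the counting used strand is also not given, so reads from those neighbours cannot be told apart. Every ratio above with such a member, or with a member that has a similar sequence elsewhere, is uncertain for these reasons.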

How the data were processed

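Deposited whole-number counts per gene come from the authors' alignment to GRCm38 and GENCODE M25 with STAR (2.7.5b), Picard (2.18.26) and Drop-seq tools (1.12), untrimmed, per the file headers. Libraries carried molecular identifiers, per the labels' protocols. The sources used here do not state whether counts are collapsed by them. The intervals, the floor of 3 counts and the chi-square test take each count as a separate molecule. The intervals and the floor cover counting error at most. If counts are not collapsed, they understate that error and the chi-square p-values are too small.

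The 3 columns named wild type in the deposited annotation were assigned to the parental samples, since genotype and replicate number agree in both sources. The other 6 columns, 2 sets of 3, could not be tied to the 3 STING-N153S samples and were not used, so the planned edgeR comparison was not run.

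The members, role groups, lists and tests were chosen with earlier results of these data known. Values are given for Myc, the highest and lowest member of each role, the paired genes, members called, and the 2 highest genes and those called of each other list; the remaining members, the MYC antagonists and the other genes named were added after their values were seen.

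CPM are counts over library totals. The chi-square test used median-ratio library sizes, expected counts of at least 5 and a false discovery rate of 0.05. It was also run on simulated data, which had counting noise only, apart from genes changed on purpose. The parental libraries had spread beyond counting noise, so that run does not show the false discovery rate in these data. Common dispersion was estimated with edgeR 4.0.16, and DESeq2 1.42.0 gave alternative size factors. R 4.3.3, Python 3.11.15, scipy 1.17.1 and blastn 2.17.0 were used. Lists were analysed as far as their symbols matched.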

Additional observations from a re-analysis of the deposited data

How the results depend on the processing

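No paired analysis was possible because libraries of 1 group alone were used, and for the same reason no setting of the comparison with STING-N153S cells was run. Scaling by library totals or TMM, and minimum expected counts of 1 or 20, each gave 3 varying members, the same genes, and 274 to 327 varying genes in all. Leaving out 1 library gave 0 to 3 varying members and 61 to 274 varying genes, against 3 and 311 with all libraries. Both minima came with replicate 3 of the parental cells left out. The biological coefficient of variation, a common value for 9528 genes, was 0.0552 and ran from 0.0318 without replicate 3 to 0.0687 without replicate 2. All 45 members were at 0.5, 1 and 2 CPM or more, and 33 to 34 at 100 CPM or more without 1 library. The summed CPM of the members rose to 17100.3 when the 20 highest genes were taken out of the totals, by construction, and ran from 15394 to 15616 without 1 library. Under that scaling 37 of 45 single-gene means moved by more than 1 SD; under TMM none did. Leaving out 1 of 3 libraries cannot move a mean by 1 SD, so the ratios and means that stayed within it do not show stability. Depth limits the lowest members most: Polr1b had 35 to 56 counts a library, which alone gives a CV of 15.4%.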
